A study of Homo sapiens with 8 samples.

Results

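The genes described here are 33 genes of glucose transport, glycolysis, gluconeogenesis, glucose 1-phosphate and UDP-glucose metabolism and the pentose phosphate pathway, listed by name and not by a measured value, out of 60718 genes counted in input RNA. Of the 33 members, 28 were found by gene name in the table of translational efficiency (TE), which holds 11244 genes. The other 5 (SLC2A2, ALDOA, PGAM1, PKLR and FBP1) were found only in the input counts, by GENCODE symbol and Ensembl gene ID. The study asked how loss of METTL5, the methyltransferase that places m6A on 18S rRNA, changes transcripts and their translation. Ribosome-protected fragments (RPFs), the pieces of mRNA that ribosomes shield from nuclease, were sequenced beside the RNA of the same lysates (input) from METTL5-WT and METTL5-KO cells, giving 8 libraries in 4 groups of 2. METTL5-WT cells carried no deletion, and METTL5-KO cells carried a CRISPR/Cas9 deletion of internal METTL5 exons and had been grown up from single cells. In a protein blot of the study, the METTL5-WT HepG2 cells had also been grown from 1 isolated clone. Whether the lysates of either genotype came from 1 clone or from several is not given in the sources used here. A difference between genotypes and a difference between clones therefore cannot be told apart. All cells were labelled HepG2, a line from a human liver cancer, and all received cycloheximide, which halts elongating ribosomes, at 100 µg/mL for 7 min before lysis.

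Glycolysis splits glucose into pyruvate in the cytosol. Glucose enters through GLUT carriers, is trapped by hexokinase and committed by phosphofructokinase, and the later steps, from GAPDH to pyruvate kinase, yield ATP and NADH. Lactate dehydrogenase interconverts pyruvate and lactate. The pentose phosphate pathway branches off at glucose 6-phosphate and makes NADPH and ribose 5-phosphate. Liver is known for running the route in both directions and for its own carrier and isoenzymes, among them GLUT2 (SLC2A2), liver pyruvate kinase (PKLR) and fructose-1,6-bisphosphatase (FBP1).

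Input libraries held 10710226 to 15307257 counts, while the RPF libraries held 3970779 and 4592443 reads (METTL5-WT) against 8626705 and 9255921 (METTL5-KO), so low members were measured less precisely in METTL5-WT RPFs. The 2 METTL5-KO input libraries differed most from each other, with a chi-square per degree of freedom over genes of 15.5 where the other groups had 3.11 to 5.32, and genes called in input over the whole table went from 3149 to 5474 without METTL5-KO replicate 1. METTL5 itself had 490 and 542 input counts without the deletion against 208 and 151 with it, and 158 and 226 against 41 and 21 RPF reads. The labelled cell type was not borne out by its markers. Of 18 hepatocyte markers, 12 had no count in either METTL5-WT input library and 13 none in either METTL5-KO one, with transthyretin (TTR) and SERPINA1 at 0 throughout, and the list summed to 0.373 to 0.981 CPM (counts per 1e6 counts). Fibroblast markers summed to 348 to 349 CPM in METTL5-WT and 267 to 286 in METTL5-KO, cholangiocyte markers to 823 to 876 and 732 to 805, nearly all of it KRT7, and leukocyte and endothelial lists to at most 1.25. The libraries are therefore called by their labels below, and nothing is read from them about hepatocytes.

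The members that mark liver were the ones that could not be measured. SLC2A2 had 0, 0, 0 and 1 counts in the input libraries (METTL5-WT 1 and 2, then METTL5-KO 1 and 2, the order used throughout), PKLR had 1, 0, 1 and 0, and FBP1 had 0, 0, 0 and 3. All of these are at or under 3 counts a library, the limit that a count of 0 allows, so no fold is given. The other 4 members listed as liver forms were measured. They are PFKL (liver phosphofructokinase), PC (pyruvate carboxylase), PCK2 (mitochondrial phosphoenolpyruvate carboxykinase) and SLC37A4 (the glucose 6-phosphate carrier of the endoplasmic reticulum). ALDOA and PGAM1 are a different case. Every 28-base word of their coding sequences also occurs in another gene, all coding bases of ALDOA lie in an overlapping gene on its strand, and their input counts (51, 40, 61 and 79 for ALDOA, 575, 576, 614 and 953 for PGAM1) are not a measure of the levels of these abundant enzymes.

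Levels can be compared between genes only per length, and for that the reads were divided by coding length and library total (RPKM). By mean RPF RPKM in METTL5-WT, the members ran from GAPDH at 5789.6, ENO1 at 3909 and LDHA at 3515 down to SLC37A4 at 11.0. Of 28 members, 5 were among the top 1% of all genes by RPF level and 12 among the top 10%. Together they took 1.49 and 1.52% of table reads in METTL5-WT input and 1.63 and 1.90% in METTL5-KO input. In RPFs they took 2.87 and 2.81% of METTL5-WT reads against 3.29 and 3.34% of METTL5-KO reads, higher in both METTL5-KO libraries. The RPF level stood above the input level for most members. The median log2 TE per coding length was 0.58 over members and -0.37 over all genes, with GAPDH at 1.71, HK1 at 1.55 and GPI at 1.39 at the top and SLC2A3, the high-affinity GLUT3 carrier, at -1.32 at the bottom. Of the 28-base words of the SLC2A3 coding sequence, 54.1% also occur in other genes, so footprints of SLC2A3 can be lost in counting. The share was 93.4% for LDHB, 70.45% for GAPDH, 68.9% for TPI1, 53.0% for LDHA and 34.6% for PGK1. In that order their log2 TE was -0.76, 1.71, 0.13, 1.19 and 0.36. The part of shared words in these TE levels was not tested.

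The comparison of METTL5-KO with METTL5-WT was made for input (edgeR quasi-likelihood test), for RPFs and for TE, the RPF change minus the input change. RPF and TE changes are log2(value + 1) differences from limma, and a gene was called only where limma and edgeR on the recovered reads both had a Benjamini-Hochberg adjusted p under 0.05 in the same direction. Nothing in the labels says that the 2 lysates of a genotype were separate cultures, so p-values measure only the spread between these lysates. In bulk libraries, fewer cells of a kind and less RNA per cell cannot be told apart. In input, 11 of 30 members tested were called, 8 higher and 3 lower, where 22.4% of all 14054 genes tested were called, 11.8% higher and 10.6% lower. In RPFs, 16 of 28 members were called, 12 higher and 4 lower, against 26.6% of 11240 genes, 14.1% higher and 12.5% lower. In TE, 2 of 28 members were called, PGK1 and LDHB, both higher, against 4.72% of genes, 2.65% higher and 2.06% lower. Median log2 changes over the members were 0.00 in input, 0.23 in RPFs and 0.08 in TE, beside 0.00, 0.02 and 0.02 over all genes. Without the 4 pentose phosphate members the medians were -0.05, 0.003 and 0.08, and 12 of 24 RPF changes were above 0. A called change in input and RPFs with the same sign was found for 9 members (SLC2A3, GPI, LDHA, PC, PGM1, PGD, PGLS, TKT and TALDO1), and 1 member, LDHB, was called in opposite directions. PFKM was called in input only. TPI1, GAPDH, PGK1, ENO1, PKM and PGM2 were called in RPFs and not in input, and apart from PGK1 their difference between RPF and input did not pass the TE test. The RPF count was 10 without METTL5-WT replicate 2 and the input count was 5 without either METTL5-WT library. In those 2 input fits the 11 called members moved by at most 0.050 on the log2 scale, while their standard errors, between 0.11 and 0.14 with every library, were between 0.21 and 0.24. Their changes moved further, by up to 0.21 without METTL5-KO input replicate 1 and up to 0.24 without replicate 2. The sizes of the input changes thus depended more on which METTL5-KO library was used. With a trend on coding GC content removed, 17 members were called in input, 8 higher and 9 lower, and with quantile normalization 13 in RPFs, 8 higher and 5 lower.

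**Figure D1:**
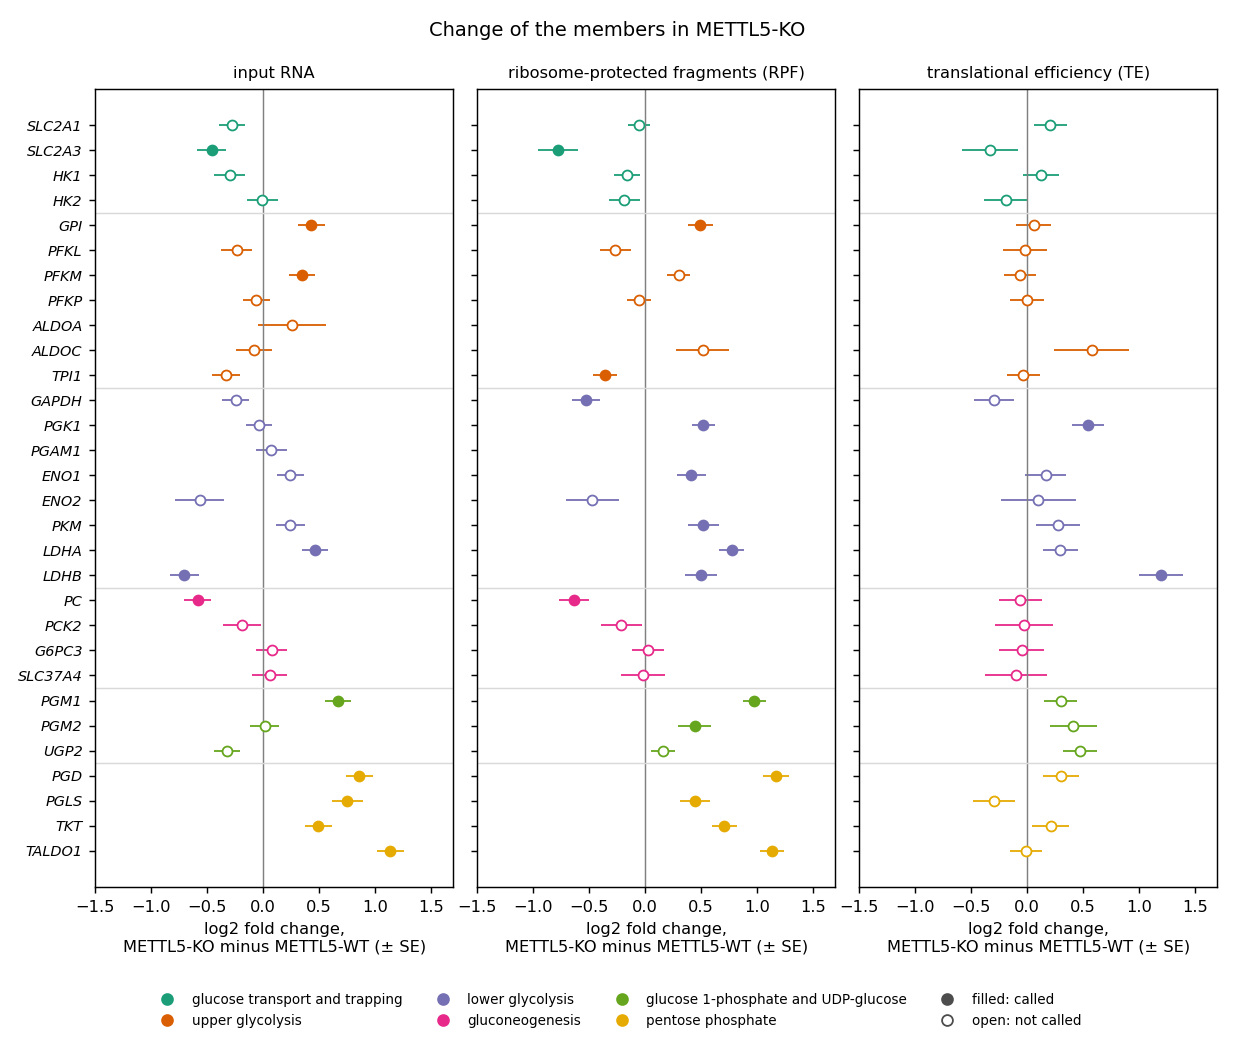
Log2 fold change of each member in METTL5-KO against METTL5-WT in input RNA, RPFs and TE, with its standard error, ordered by role and coloured by it; filled points were called and open ones were not. The pentose phosphate members lie right of 0 in input and RPFs, and LDHB lies at -0.70 in input and 0.50 in RPFs.

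All 4 pentose phosphate members rose in METTL5-KO, in input and in RPFs. All 4 were called higher in each, beside 11.8% of all genes in input and 14.1% in RPFs. PGD, 6-phosphogluconate dehydrogenase, which makes NADPH in the oxidative arm, had 1502, 1558, 2543 and 3057 normalized reads in input and 2349.6, 2852, 6007 and 5659 in RPFs, and the genotypes did not overlap in either. Its log2 change was 0.86 ± 0.12 (SE) in input (edgeR adjusted p = 1.15e-05) and 1.17 ± 0.11 in RPFs (limma adjusted p = 1.13e-06). TALDO1, transaldolase of the non-oxidative arm, had 2151, 2294, 4474 and 5381 in input and 5013, 5038, 10997 and 11042 in RPFs, close to 2-fold in each, with log2 changes of 1.14 ± 0.12 (edgeR adjusted p = 2.14e-07) and 1.13 ± 0.10 (limma adjusted p = 5.28e-07). TKT, the transketolase that works beside it, had 7886, 8111, 10316 and 12395 in input and 23215, 25022, 40119 and 38648 in RPFs. It rose by 0.49 ± 0.12 (edgeR adjusted p = 0.00426) and 0.71 ± 0.11 (limma adjusted p = 0.000232). PGLS, 6-phosphogluconolactonase, had 468, 468, 676 and 915 in input and 1708, 1428, 2083 and 2182 in RPFs, and rose by 0.75 ± 0.14 (edgeR adjusted p = 0.000255) and 0.45 ± 0.13 (limma adjusted p = 0.0175). None of the 4 was called in TE, where their log2 changes were 0.31 for PGD, 0.21 for TKT, -0.01 for TALDO1 and -0.30 for PGLS. The pathway took 0.168 and 0.174% of table reads in METTL5-WT input and 0.252 and 0.301% in METTL5-KO input, and 0.342 and 0.373% against 0.569 and 0.557% in RPFs.

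**Figure D2:**
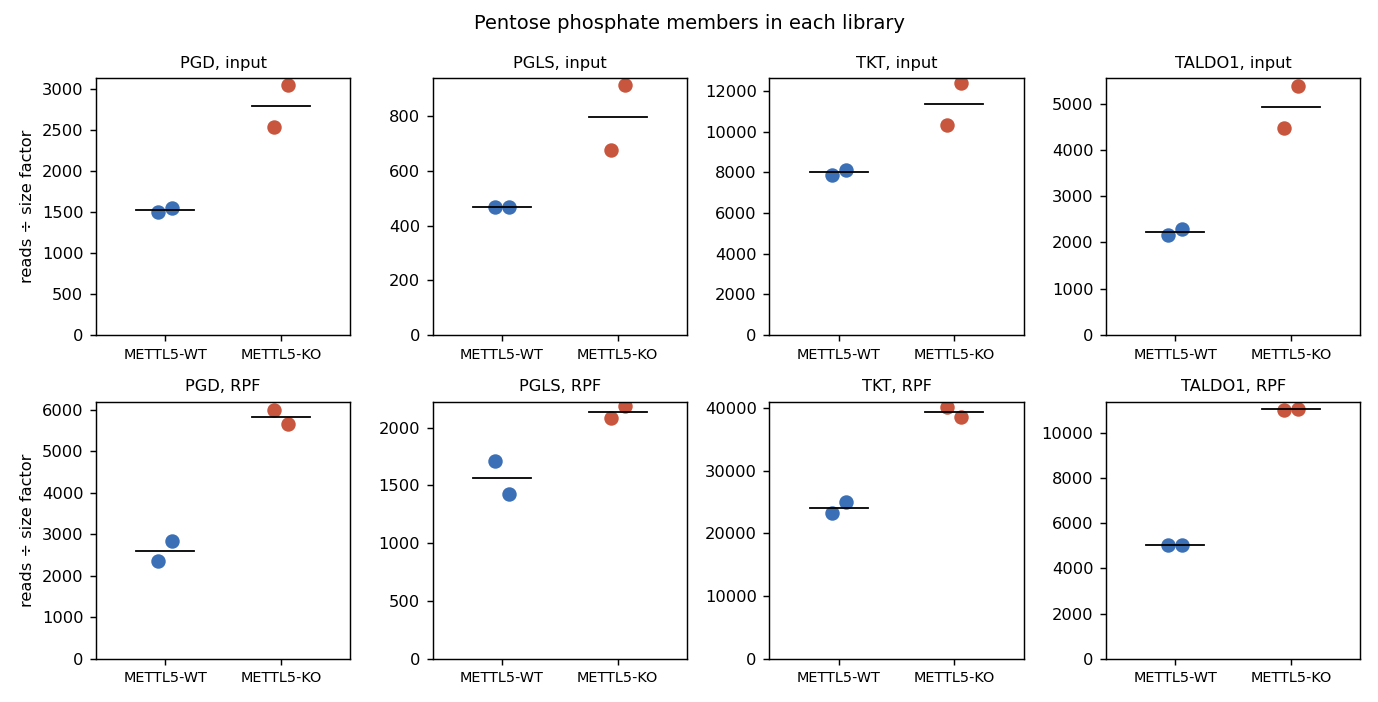
Reads divided by the library's size factor for PGD, PGLS, TKT and TALDO1 in each library, input above and RPF below; points are libraries, black lines are group means and every axis starts at 0. In all 8 panels both METTL5-KO libraries lie above both METTL5-WT libraries.

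The calls of PGD, PGLS and TALDO1 in input, and of PGD, TALDO1 and TKT in RPFs, were kept when any 1 library or lysate was left out. In input, TKT lost its call without METTL5-WT replicate 1 (0.47 ± 0.23, edgeR adjusted p = 0.211) or 2 (0.52 ± 0.22, edgeR adjusted p = 0.142), with its change hardly moved and a larger standard error. In RPFs, PGLS lost its call without METTL5-KO replicate 2 (0.42 with limma adjusted p = 0.0591) and without METTL5-WT replicate 2 (0.32 with limma adjusted p = 0.17). With quantile normalization the RPF change of TKT was 0.18 (limma adjusted p = 0.226). TALDO1 lies on chromosome 11 at 747415 to 765012 (hg38, plus strand), and the 40 tested genes nearest to it, 20 on each side, had a median input change of 0.61. For PGD (chromosome 1, 10398592 to 10420511), TKT and PGLS that median was -0.01, -0.12 and 0.26.

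Lower glycolysis, from glyceraldehyde 3-phosphate to lactate, had 7 members with RPF values, of which 6 were called, beside 26.6% of all genes: 5 rose and GAPDH fell. In input 2 of 8 were called, beside 22.4%. LDHA, the lactate dehydrogenase subunit typical of muscle and of tumours, had 11176, 10719.8, 15322 and 15178 normalized reads in input and 32682, 32573, 53879 and 57714 in RPFs. It rose by 0.46 ± 0.11 in input (edgeR adjusted p = 0.00449) and by 0.77 ± 0.11 in RPFs (limma adjusted p = 6.79e-05). The genotypes did not overlap in either measure, and the RPF call was kept when any 1 lysate was left out, while the input call was lost without METTL5-WT replicate 1 (edgeR adjusted p = 0.177) or 2 (0.239). PKM, the pyruvate kinase of most tissues, had 50747, 45926, 70931 and 67419.7 RPF values (log2 change 0.52 ± 0.14, limma adjusted p = 0.00927). ENO1, the common enolase, had 47504, 47368, 63611 and 62779 (0.41 ± 0.13, limma adjusted p = 0.0208). For both, the METTL5-KO libraries were the higher ones, while their input changes were 0.24 ± 0.13 and 0.24 ± 0.12 and were not called. GAPDH, the dehydrogenase often used as a loading control, had 58535, 50029, 36224 and 38752 in RPFs and fell by 0.53 ± 0.13 (limma adjusted p = 0.00478). Its input values of 13274, 12196, 9791 and 11911 gave -0.24 ± 0.12 (edgeR adjusted p = 0.163). ENO2, the neuronal enolase, was low, with 143, 115, 161 and 188 RPF reads, and was not called in input or RPFs.

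**Figure D3:**
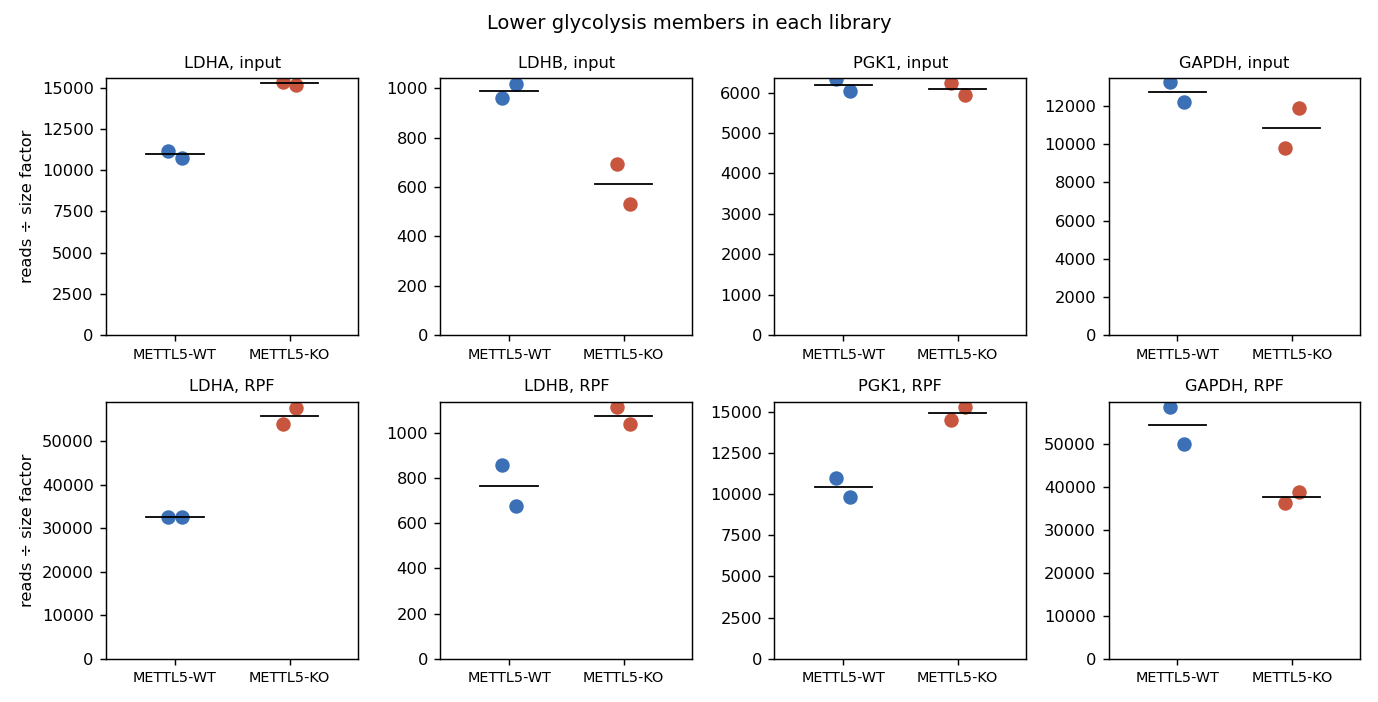
Reads divided by the library's size factor for LDHA, LDHB, PGK1 and GAPDH in each library, input above and RPF below; points are libraries, black lines are group means and every axis starts at 0. LDHB is lower in METTL5-KO input and higher in METTL5-KO RPFs, and PGK1 input values are level between 5929 and 6331.

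Leaving out METTL5-WT replicate 1 ended the RPF calls of ENO1 (limma adjusted p = 0.116) and GAPDH (0.085), and leaving out METTL5-WT replicate 2 those of ENO1 (0.124), PKM (0.0937), PGK1 (0.0399 in limma, but not called by edgeR) and LDHB (0.169). The RPF call of LDHB was also lost without METTL5-KO replicate 1 (limma adjusted p = 0.0736). With quantile normalization, PKM was at 0.23 and ENO1 at 0.06 in RPFs, neither called.

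The 2 members with a called TE change are both in lower glycolysis. LDHB, the lactate dehydrogenase subunit typical of heart (ENSG00000111716, chromosome 12, 21635342 to 21757857, minus strand, hg38), had 959, 1015, 694 and 531 normalized reads in input and 858, 676, 1114 and 1039 in RPFs. The METTL5-KO libraries were thus the lower ones in input and the higher ones in RPFs. LDHB fell by 0.70 ± 0.13 in input (edgeR adjusted p = 0.000311), rose by 0.50 ± 0.14 in RPFs (limma adjusted p = 0.0124) and rose by 1.20 ± 0.20 in TE (limma adjusted p = 0.00419, edgeR adjusted p = 0.000336). The log2 ratio of RPF to input value was -0.16 and -0.59 in the METTL5-WT lysates and 0.68 and 0.97 in the METTL5-KO lysates. PGK1, phosphoglycerate kinase, which makes ATP in this stage (ENSG00000102144, chromosome X, 77910739 to 78129295, plus strand), had 6331, 6045, 6242 and 5929 in input, where the genotypes overlapped. In RPFs it had 10980.5, 9823, 14494 and 15309. It rose by 0.52 ± 0.10 in RPFs (limma adjusted p = 0.00112) and by 0.54 ± 0.14 in TE (limma adjusted p = 0.041, edgeR adjusted p = 0.0332), with log2 ratios of 0.79 and 0.70 in the METTL5-WT lysates against 1.22 and 1.37 in the METTL5-KO lysates.

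The TE call of LDHB was lost without METTL5-KO replicate 2 (1.05, limma adjusted p = 0.107), and that of PGK1 without any 1 of the 4 lysates (0.47 to 0.62, limma adjusted p = 0.0678 to 0.228). Input and RPF reads of LDHB were counted by different tools, and 93.5% of its coding bases also lie in the overlapping gene ENSG00000285854, which had 0 counts, so its input reads come mainly from the exon bases outside that overlap.

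The sequences around the start codons of LDHB and PGK1 are shown because these 2 members carry the TE calls, with UGP2, whose TE change of 0.47 ± 0.15 came closest among the rest (limma adjusted p = 0.0785), and LDHA and GAPDH for comparison. Each line gives 12 bases before the start codon, the start codon in capitals and 12 bases after it, from hg38 and the canonical GENCODE transcript:
LDHB: ctcctgtgcaaaATGgcaactcttaag
PGK1: tgtatttccaaaATGtcgctttctaac
UGP2: taagcccctaaaATGtcgagatttgta
LDHA: tccaagtccaatATGgcaactctaaag
GAPDH: cgctcagacaccATGgggaaggtgaag
LDHB, PGK1 and UGP2 have the bases aaa directly before the start codon, which was noticed after their values were seen. Among all 11173 genes with an ATG start and a TE value, the 483 with the same 3 bases had a median TE change of 0.17 against 0.02 over all, and their median coding GC content was 45.7% against 52.4%. The 2752 genes with a coding GC content under 45% had a median of 0.28, and the 222 that also had aaa had 0.32. The coding GC content was 43.8% for LDHB, 50.3% for PGK1 and 39.9% for UGP2. Of 7 members with a coding GC content below the median of all genes, 6 had a TE change above 0 and their median was 0.41, while 9 of the other 21 were above 0 with a median of -0.01. With the trend on GC content removed, the TE change was 0.96 for LDHB (limma adjusted p = 0.0116) and 0.45 for PGK1 (limma adjusted p = 0.067). With the lysate, which input and RPF share, as a block in the same fit, both passed (limma adjusted p = 0.00103 for LDHB and 0.0482 for PGK1).

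In upper glycolysis, from glucose 6-phosphate to the triose phosphates, 2 of 7 members tested in input and 2 of 6 in RPFs were called, close to the shares over all genes of 22.4% and 26.6%. GPI, glucose 6-phosphate isomerase, had 3810.02, 3905, 4713 and 5774 normalized reads in input and 12722, 13651, 18123 and 18998 in RPFs, with both METTL5-KO libraries higher. It rose by 0.43 ± 0.12 in input (edgeR adjusted p = 0.0118) and by 0.49 ± 0.11 in RPFs (limma adjusted p = 0.00288). PFKM, the muscle phosphofructokinase subunit, had 1126, 1163, 1441 and 1500 in input (0.35 ± 0.11, edgeR adjusted p = 0.0294). In RPFs PFKM had 3074, 3642, 4134 and 4098 (0.30 ± 0.10), passing in limma (adjusted p = 0.0364) and not in edgeR (adjusted p = 0.058). TPI1, triose phosphate isomerase, fell in RPFs from 4186 and 4308 to 3280.2 and 3334 (-0.36 ± 0.11, limma adjusted p = 0.0171), and its input change of -0.33 ± 0.12 was not called (edgeR adjusted p = 0.0529). PFKL and PFKP, the liver and platelet subunits, had RPF changes of -0.27 ± 0.14 and -0.05 ± 0.11 that were not called. ALDOC, the brain aldolase, had 84, 55, 179 and 188 RPF reads and a TE change of 0.58 ± 0.34 (limma adjusted p = 0.318). The input calls of GPI and PFKM were lost without METTL5-WT replicate 1 (edgeR adjusted p = 0.304 and 0.458) or 2 (0.227 and 0.347). The RPF calls of GPI and TPI1 were lost without METTL5-WT replicate 1 (0.44 and -0.38; GPI was then called by limma only), and that of TPI1 also without METTL5-WT replicate 2 (limma adjusted p = 0.109).

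Among the glucose carriers and hexokinases, 1 of 4 members tested was called in input and 1 of 4 in RPFs. The shares over all genes were 22.4% and 26.6%. The called member was SLC2A3 in both. It had 409, 390.1, 303 and 284 normalized reads in input and 219, 201, 139.9 and 106 in RPFs, lower in both METTL5-KO libraries. It fell by 0.46 ± 0.13 in input (edgeR adjusted p = 0.0141) and by 0.78 ± 0.18 in RPFs (limma adjusted p = 0.00344), on 92 to 116 RPF reads a library. The input call was lost without METTL5-WT replicate 1 (edgeR adjusted p = 0.281) or 2 (0.165), and the RPF call without METTL5-KO replicate 2 (limma adjusted p = 0.0614). SLC2A1, the GLUT1 carrier found in most tissues, had 3062, 2766, 2736 and 2871 in RPFs, where the genotypes overlapped, and -0.27 ± 0.12 in input. HK1 and HK2, hexokinases of most tissues and of muscle and tumours, had input changes of -0.30 ± 0.13 and -0.01 ± 0.14 and RPF changes of -0.16 ± 0.12 and -0.19 ± 0.14, none of them called.

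In gluconeogenesis, 1 of 4 members tested was called in input and 1 of 4 in RPFs, beside 22.4% and 26.6% of all genes. The called member, PC, which carboxylates pyruvate to oxaloacetate in mitochondria, fell in both. PC had 731, 716, 449.7 and 522 normalized reads in input and 995, 766, 562 and 559 in RPFs, both METTL5-KO libraries lower in each. The log2 changes were -0.59 ± 0.12 (edgeR adjusted p = 0.00114) and -0.64 ± 0.13 (limma adjusted p = 0.00193), and TE was at -0.06 ± 0.19. The 40 tested genes around PC had a median input change of 0.17. Its calls were lost in input without METTL5-WT replicate 1 (edgeR adjusted p = 0.0823) or 2 (0.0541), and in RPFs without METTL5-WT replicate 1 (limma adjusted p = 0.0551). PCK2, G6PC3 (the glucose 6-phosphatase of most tissues) and SLC37A4 had input changes between -0.19 and 0.08 and RPF changes between -0.21 and 0.03, none called.

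PGM1, the main phosphoglucomutase, which joins glucose 6-phosphate to glycogen and sugar nucleotides, rose in input from 643 and 637 normalized reads to 974 and 1077 (0.67 ± 0.12, edgeR adjusted p = 0.000208). In RPFs PGM1 rose from 1339.9 and 1215 to 2577 and 2444 (0.98 ± 0.11, limma adjusted p = 3.7e-06), and both calls were kept when any 1 library or lysate was left out. PGM2, a related mutase, had 584, 449, 729.6 and 665 in RPFs (0.44 ± 0.15, limma adjusted p = 0.0304) and 0.01 ± 0.13 in input. The PGM2 call was lost without METTL5-KO replicate 1 (limma adjusted p = 0.189) or 2 (0.083), without METTL5-WT replicate 2 (0.322) and with the GC trend removed (0.063). UGP2, which makes UDP-glucose, had 1266, 1338, 1128 and 975 in input (-0.32 ± 0.12, edgeR adjusted p = 0.0514) and 1216, 1243, 1339 and 1409 in RPFs (0.16 ± 0.11).

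Within each enzyme family the share of an isoenzyme was computed per library from reads per kb of coding length, as a description with no test. The shares of 28-base coding words found in other genes are 54.1% for SLC2A3 against 0% for SLC2A1, 38.0% for HK2 against 0.110% for HK1 and 93.4% for LDHB against 53.0% for LDHA. Input and RPF reads were counted by different tools, so a share in RPFs cannot be set against a share in input as a difference in translation, and the part of the shared words was not tested. SLC2A1 made up 69.5, 69.9, 72.5 and 72.2% of SLC2A1 and SLC2A3 reads in input and 93.4, 93.3, 95.2 and 96.5% in RPFs. HK1 made up 55.65, 48.8, 47.95 and 46.5% of HK1 and HK2 reads in input, and 69.6 to 71.4% in RPFs. Of the phosphofructokinases, PFKM took 32.3, 32.4, 42.5 and 37.75% in input and 36.85, 38.4, 47.3 and 43.6% in RPFs, higher in METTL5-KO throughout. PFKL took 33.1, 33.6, 25.9 and 28.5% of the same family in RPFs, lower in METTL5-KO throughout. ENO1 made up at least 99.3% of ENO1 and ENO2 reads in every library. LDHA took 92.1, 91.4, 95.7 and 96.6% in input and 97.5 to 98.2% in RPFs, with the limit on LDHB counting given above. PGM1 took 61.9, 58.4, 67.65 and 72.8% of PGM1 and PGM2 reads in input and 71.4, 74.7, 79.4 and 80.0% in RPFs.

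**Figure D4:**
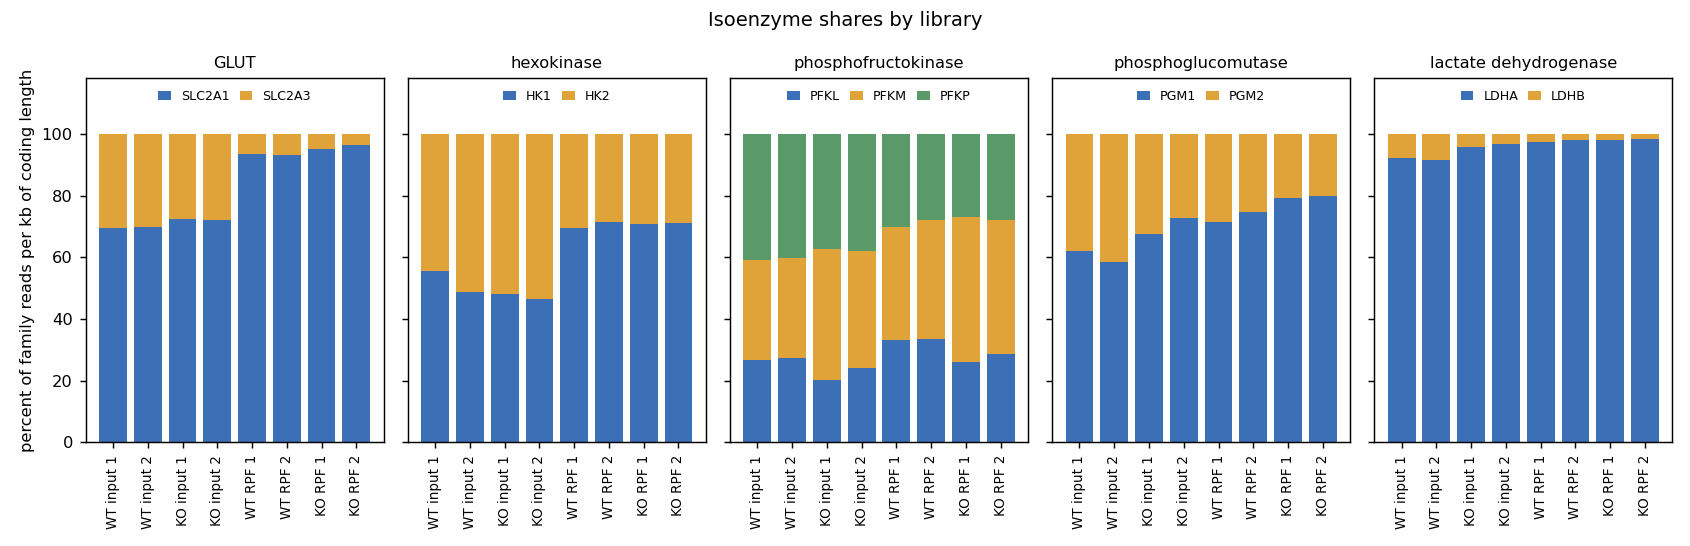
Percent of each family's reads per kb of coding length taken by each isoenzyme, stacked to 100, in the 8 libraries. SLC2A1 takes over 93% of carrier reads in every RPF library and under 73% in every input library, with 54.1% of SLC2A3 coding words shared with other genes, and the PGM1 share is higher in METTL5-KO than in METTL5-WT in both library types.

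Of the 33 members, 5 lie on chromosome 12 between GAPDH and LDHB (6534512 to 21757857): GAPDH, TPI1, ENO2, SLC2A3 and LDHB. This stretch was taken up after the values were seen. All 5 had an input change below 0, from -0.24 to -0.70, and 2 of them, SLC2A3 and LDHB, were called. The other 95 genes tested there had a median input change of -0.52 beside 0.00 over all genes, with 43 called lower and 2 higher, and in RPFs the other 68 had a median of -0.35 with 26 lower and 2 higher. In TE their median was 0.13. LDHB in input (-0.70) was level with its 40 nearest tested genes (median -0.69), and SLC2A3 (-0.46) with its own (-0.43). PGM1 (0.67 against -0.16), PGD (0.86 against -0.01) and PC (-0.59 against 0.17) lay away from theirs. The neighbours of LDHA were raised as well, with medians of 0.29 in input and 0.41 in RPFs where LDHA had 0.46 and 0.77. How far the neighbourhood accounts for a member's change was not tested.

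**Figure D5:**
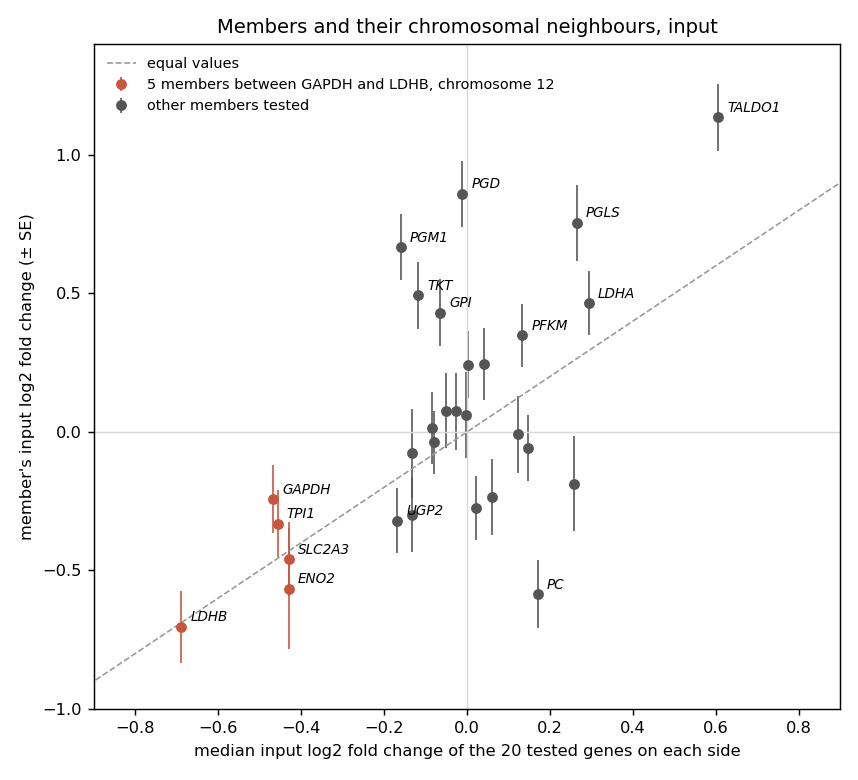
Input log2 fold change of each member (vertical, with its standard error) against the median input log2 fold change of the 20 tested genes on each side (horizontal); ALDOA is left out. The 5 members between GAPDH and LDHB lie at the lower left near the line of equal values, and TALDO1 has the highest neighbour median, 0.61.

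Other genes of the same routes, from lists of 94 genes outside the members, were called in input for 24 of 75 tested, 11 higher and 13 lower. In RPFs 22 of 73 were called, 14 higher and 8 lower, and in TE 1 of 73. The shares over all genes were 22.4% in input, 26.6% in RPFs and 4.72% in TE. The list nearest to the members, the remaining genes of glycolysis, gluconeogenesis and the pentose phosphate pathway, had 12 of 29 called in input, 6 higher and 6 lower, with a median of 0.22. In RPFs 7 of its 27 genes were called, 3 higher and 4 lower. Its RPF median was -0.05, where the members had 0.23, or 0.003 without the pentose phosphate members. Pyruvate entry to mitochondria had 9 of 14 genes called in RPFs, 7 higher and 2 lower, with a median of 0.31. Genes of glycogen metabolism had 3 of 15 called in RPFs (median 0.03) and hypoxia-responsive genes outside glycolysis 3 of 17 (median 0.03). The largest called input changes were SLC16A7, a monocarboxylate carrier (-2.23 ± 0.17), HKDC1, a hexokinase-like gene (1.86 ± 0.41), EGLN3, an oxygen-sensing hydroxylase (1.20 ± 0.22), and SLC2A6, a GLUT carrier (1.06 ± 0.35). In RPFs HKDC1 was called higher, with 2 and 2 reads in METTL5-WT against 33 and 37 in METTL5-KO, and no fold is given because the METTL5-WT reads are under the limit of 3. The other large RPF changes were PDPR (-1.36 ± 0.33), SLC16A7 (-1.24 ± 0.26) and MPC1, a subunit of the mitochondrial pyruvate carrier (1.05 ± 0.24). The TE call was RPE, ribulose-phosphate epimerase of the pentose phosphate pathway (0.74 ± 0.19, limma adjusted p = 0.0369). RPE was called lower in input (-0.37 ± 0.12, edgeR adjusted p = 0.0336), unlike the pentose phosphate members, and was not called in RPFs.

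The promoters of the members (250 bases before a RefSeq start, GRCh38.p14, 61 promoters of all members but SLC2A3) were searched on both strands for 4 motifs. Some windows lie after the start codon of the canonical transcript, so they precede the start of another transcript. That holds for the only GAPDH window (6535014 to 6535263, start codon at 6534833) and for every window of PFKP and PGAM1. The E-box CACGTG was in 16.4% of member promoters and in 7.26% of all 35116 promoters. ACGTG, the hypoxia response core, which overlaps the E-box, was in 39.3% against 21.4%. Windows of 1 gene can overlap and hold the same site, as those of G6PC3 do, so these percentages are not of independent promoters. By gene, 8 of 32 members held the E-box and 18 of 32 the hypoxia core, with no share by gene over all genes to set beside them. TGACNNNGC, the antioxidant response core, was in 9.84% against 13.3%, and among the pentose phosphate members PGD alone held it. TGACGTCA, the cyclic AMP response element, was in 1 promoter, of LDHA, or 1.64% of member promoters against 1.85% of all. LDHA rose in input and RPFs, and its promoter at chr11:18394313-18394562 (plus strand, RefSeq) is shown because it alone held the cyclic AMP response element. Its matches to 3 of the 4 motifs are in capitals. The promoter of ALDOC, which was not called, also held 3 of the 4 (the E-box and the hypoxia and antioxidant cores). So did the GAPDH window, which lies after the canonical start codon, and GAPDH fell in RPFs. The number of motifs therefore does not set LDHA apart:
LDHA: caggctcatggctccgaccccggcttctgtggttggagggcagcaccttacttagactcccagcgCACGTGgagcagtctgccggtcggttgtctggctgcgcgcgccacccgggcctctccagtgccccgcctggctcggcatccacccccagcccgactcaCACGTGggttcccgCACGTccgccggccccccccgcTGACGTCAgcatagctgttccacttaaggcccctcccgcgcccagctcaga
Matches are descriptions of these letters only.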

How the data were processed

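Input RNA and RPFs of 4 lysates, labelled HepG2, were sequenced (2 METTL5-WT, 2 METTL5-KO). The authors trimmed reads, aligned input with STAR 2.7.3a to hg38 and deposited raw counts per gene from featureCounts on uniquely mapped, strand-specific reads (1.6.0 in the submitters' notes, another release in the file header). RPF reads of 25 to 34 nt, freed of rRNA reads, went through the RiboToolkit server. The deposited TE table names its values RPKM, but every value was a whole number of reads (tolerance 0.1 read) divided by 1 size factor per library, a normalized signal not divided by length. Input reads recovered from it equalled the count table for 100% of genes. The table also holds the authors' own log2 fold change of TE and its p-values, raw and adjusted, which were not used.

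Input counts were tested with edgeR (4.0.16) after TMM and filterByExpr. Signal values were tested with limma (3.58.1) on log2(value + 1) over 8 libraries and 4 group means, leaving out genes whose mean value was under 1 in input or in RPFs, beside edgeR on recovered reads. DESeq2 (1.42.0) was an alternative. P-values were adjusted over all genes tested (Benjamini-Hochberg, threshold 0.05), and the fitting functions were tested on simulated counts. The limit of 3 counts that a count of 0 allows covers counting error only, and reads carry no molecular identifiers. Standard errors come from the edgeR and limma fits and include the spread between libraries.

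The main fits did not pair the genotypes by replicate number. Deviations of same-numbered METTL5-WT and METTL5-KO libraries correlated at 0.04 in input and 0.00 in RPFs. Input and RPF of a number come from 1 lysate per the labels, and their deviations correlated at only -0.02 and 0.05. Such correlations therefore cannot show whether the genotypes were paired. The lysate, and in another alternative the number, was fitted as a block. Members, lists and tests were chosen with earlier results of these data known. Statistics are given for every member called. Pathway lists outside the members are given as counts with at most 4 named genes per comparison, and RPE also with its input change. Coordinates are hg38 as in the files, and start codons come from GENCODE 44, which placed 99.9% of shared genes alike. RPKM values printed here were computed from recovered reads and coding length.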

Additional observations from a re-analysis of the deposited data

Results flagged for a closer look

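LDHB and PGK1 were picked out because the METTL5-KO against METTL5-WT difference was not the same in RPFs and in input, tested as the interaction of genotype and library type. For LDHB the 2 differences were 0.50 and -0.70 on the log2 scale, and they differed by 1.20 ± 0.20 (SE; limma adjusted p = 0.00419), with both METTL5-KO lysates above both METTL5-WT lysates in the ratio of RPF to input. For PGK1 the differences were 0.52 and -0.04, and they differed by 0.54 ± 0.14 (limma adjusted p = 0.041), again with both METTL5-KO lysates above. The input value of LDHB rests on the part of its exons outside an overlapping gene, and 93.4% of the 28-base words of its coding sequence occur in another gene. For PGK1 the share of such words was 34.6%. The part of the overlap or of shared words in the TE values was not tested. Groups of 2 libraries were not tested for a library far from the rest; the 2 METTL5-KO input libraries differed most from each other (chi-square per degree of freedom 15.5 against 3.11 to 5.32 in the other groups).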

How the results depend on the processing

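No called member changed direction under any alternative run. Counts of called members stayed within 1.5 times of the reported ones except as follows. In input, removing the GC trend gave 17 and requiring at least 2-fold with unadjusted p under 0.05 gave 1. In RPFs, limma without its variance trend gave 10 and the 2-fold rule 2. In TE, the GC trend removed, quantile normalization and the 2-fold rule gave 1 each, and limma without its variance trend gave 0 members and 1 gene of all. Leaving out 1 library gave 5 to 16 members in input (median change -0.080 to 0.070), and leaving out 1 lysate gave 10 to 14 in RPFs (median 0.13 to 0.24) and 0 to 1 in TE (median -0.051 to 0.17). Beyond these, the median moved by more than its spread over single pairs of lysates in RPFs with the GC trend removed (0.19) and with quantile normalization (0.074), and in TE with quantile normalization (-0.037). Calls over all genes were 956 in RPFs and 1139 in input by the 2-fold rule, and 1220 and 1368 in input without METTL5-WT replicates 1 and 2, against 5474 without METTL5-KO replicate 1, whose omission left 1965 in RPFs. In TE all-gene calls were 838 by DESeq2, 285 with the GC trend removed, 337 by the 2-fold rule, and 4 to 222 with 1 lysate left out. Of TE calls 56.2% were higher, but 38.3% by the 2-fold rule, 42.2% with quantile normalization, 46.0% by edgeR alone and 66.3% with the GC trend removed. A replicate block on the number gave 14 members in input, 17 in RPFs and 2 in TE, with 3554, 3246 and 759 genes called in all, and a replicate block on the lysate gave 2 in TE and 759 genes in all (2 and 444 with the GC trend also removed); these blocks lost no called member. With the canonical transcript length for input, chosen after seeing the data, the METTL5-WT and METTL5-KO input shares were 72.1 and 74.6% for SLC2A1, 63.0 and 58.3% for HK1, 99.7 and 99.8% for ENO1, 86.6 and 93.5% for LDHA and 65.6 and 74.9% for PGM1, and 29.6% for PFKM in METTL5-WT; without length, PGM1 took 78.3% in METTL5-KO RPFs. With exon length for input the members' median log2 TE was 2.36, and 0.95 above that of all genes in place of 0.96. The causes of these differences were not tested. Depth limits SLC2A3, ALDOC, ENO2 and SLC37A4 most, at under 200 RPF reads a library.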
